A study of Mus musculus with 4 samples.

Results

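Bipolar cells of the mouse retina were described from the bipolar column (BC) of a table of long-read isoform counts for 6 retinal cell classes. Counts of all isoforms of a gene were summed, and the genes described are the 6180 of 16702 genes in the table with 100 or more BC counts. These 6180 genes held 99.3% of the 29010038 BC counts. They comprised 5947 Ensembl genes and 233 loci named only by position. The other 5 columns were those of rods (Rod), cones (Cone), amacrine cells (AC), ganglion cells (RGC) and Müller glia (MG), with totals from 3509890 counts in RGC to 55437340 in Rod. Bipolar levels were set against the mean of these 5 columns.

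The 4 single-cell libraries were made from wild-type male C57BL6/J retinas dissociated with papain, and their cDNA was read on nanopores. No enrichment was used for 2 libraries, 1 from postnatal day 40 and 1 with no age given. The CD73 enrichment library came from postnatal week 8 and the CD90.2 enrichment library from postnatal month 4. The protocol describes magnetic removal of CD73-positive photoreceptors and magnetic capture of CD90.2-positive neurons, whereas the design text names FACS. The table gives 1 pooled column per class with no library, so enrichment, age and class cannot be separated. There are no replicates and no test between classes. Differences are therefore given by size, and every interval covers counting error only. Intervals of levels and shares are 95% intervals. Those of folds combine the outer 95% bounds of both levels and are therefore wider than 95% intervals.

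Bipolar cells are the interneurons that carry signals from photoreceptors to amacrine and ganglion cells. ON bipolar cells sense photoreceptor glutamate with the metabotropic receptor mGluR6, which acts through a G protein to close the cation channel TRPM1, so these cells depolarise in light. OFF bipolar cells use kainate and AMPA receptors, which glutamate opens directly, and both kinds release glutamate from ribbon synapses under inhibition by amacrine cells.

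The 5 bipolar marker genes were at their highest level in the BC column. Of these, 4 of the 5 were 4-fold or more above the mean of the other columns. How cells were typed is not given in the sources used here, so whether these genes served for typing is not known. Levels are given as CPM, counts scaled to a column total of 1000000. Summed, the 5 markers reached 23455 CPM in BC and between 1.42 CPM in RGC and 883 CPM in Rod elsewhere. Markers of other classes were present at lower summed levels than in their own columns. The 6 rod markers summed to 377 CPM in BC against 21686 CPM in Rod, the 6 cone markers to 811 CPM against 99760 CPM in Cone, and the 6 Müller glial markers to 390 CPM against 44104 CPM in MG. Amacrine markers summed to 3.62 CPM in BC and ganglion cell markers to 30.9 CPM, while 6 microglial genes summed to 207 CPM in BC and 2251 CPM in MG. Of the rod markers 5 of 6 had 100 or more BC counts, of the cone and Müller glial markers 4 of 6 each, of the ganglion cell markers 2 of 6, and of the amacrine markers 0 of 6. The part of such RNA in the results below was not tested.

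Pcp2, a modulator of G-protein signalling found in ON bipolar and cerebellar Purkinje cells, was the most abundant gene of the BC column. It lies at chr8:3623371-3625545 of build GRCm38, minus strand. Its level was 23352 CPM in BC (interval 23296 to 23408), 832 in Rod, 744 in MG, 669 in Cone, 97.5 in AC and 1.14 in RGC. BC stood 49.8-fold above the mean of the others (interval 49.1 to 50.6), and 28.1-fold above Rod, the next column. Prkca, the protein kinase C used to stain rod bipolar cells, was at 31.2 CPM in BC, 6.67 in Rod, 2.09 in AC, 0.652 in MG, 0.547 in Cone and 0 in RGC, a 15.7-fold difference (interval 12.6 to 18.8). Otx2, a homeodomain factor of photoreceptors and bipolar cells, separated the classes least. Its 48.3 CPM in BC (interval 45.8 to 50.9) lay close to the 43.4 CPM in Rod, above 14.1 in Cone, 7.01 in MG, 0.290 in AC and 0.285 in RGC. Its fold was 3.71 (interval 3.30 to 4.15). For every level here, fewer expressing cells and less RNA per cell cannot be told apart. Pcp2, Prkca, Otx2, Grm6, Trpm1, Gng13, Rgs11 and Gsg1 overlap a gene on the opposite strand. Whether counting used strand is not given in the sources used here, so it is not known whether reads of such pairs were kept apart.

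Of the 6180 genes, 428 (6.93%) were 4-fold or more higher in BC than the mean of the other 5 columns, and 295 (4.77%) were 4-fold or more lower. The higher set held 377 genes with a symbol and 51 loci named by position, and 183 of the 428 exceeded 10-fold. The median fold of all 6180 genes was 1.006. Of the 428, 174 were 4-fold or more above the highest other column. At least 1 other column was at 0 for 274 of them, and 411 remained when columns at 0 were set to 3 counts, the number that a count of 0 allows. With 100 counts required in any column rather than in BC, 9290 genes were compared, of which 432 (4.65%) were higher and 1428 (15.4%) lower. Scaling by the median of ratios raised the median log2 fold of all genes by 0.26 and gave 578 higher and 188 lower genes, so the share of higher among called genes moved from 59.2% to 75.5%. The higher genes together held 6.16% of BC counts. At the edge of the count rule, the 16 named genes with exactly 100 BC counts had folds from 0.316 to 13.9 (the highest was Prox1), and the 19 named genes with 99 counts had folds from 0.0947 to 4.45 (the highest was Supt16).

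**Figure D1:**
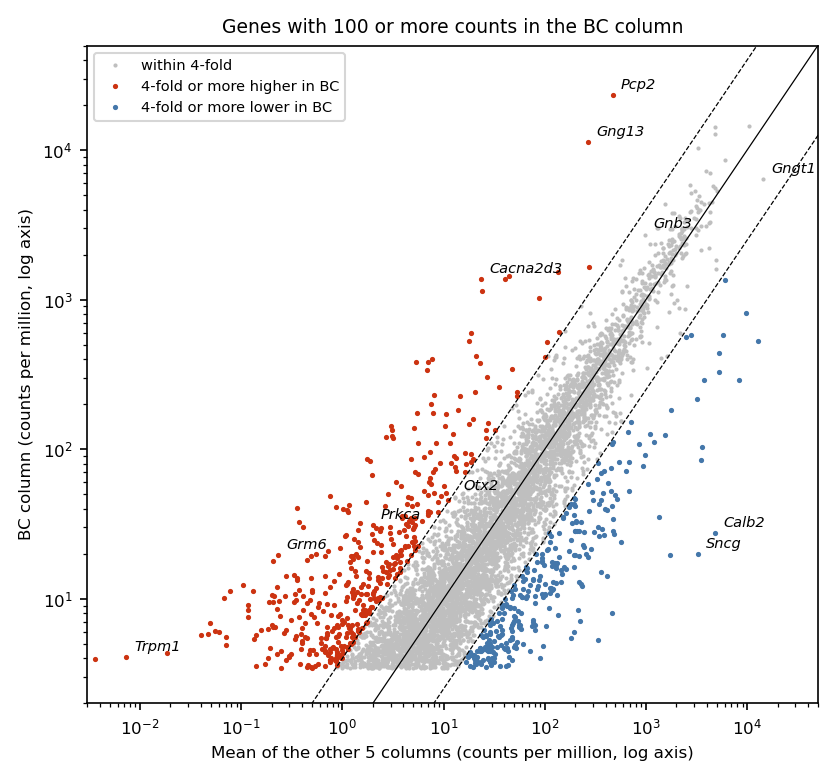
Level of each gene with 100 or more BC counts in the BC column (vertical axis, CPM, log scale) against the mean of the other 5 columns (horizontal axis, CPM, log scale), with the line of equality and dashed lines at 4-fold. The 428 higher genes reach from a few CPM (Trpm1) to 23352 CPM (Pcp2), and the 295 lower genes include Calb2 and Sncg.

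The genes that set BC apart most included GABA receptors, calcium-binding proteins and G-protein signalling genes. Among genes with 1000 or more BC counts, the highest fold was that of Lyve1, a hyaluronan receptor used as a marker of lymphatic endothelium, at 115 (interval 63.9 to 183). With columns at 0 set to 3 counts it was 65.3, below that of Gabrr1 at 69.0. The level of Lyve1 was 40.7 CPM in BC, 1.05 in Rod, 0.684 in Cone and 0.0415 in AC, with 0 counts in MG and RGC. Cacna2d3, an auxiliary subunit of voltage-gated calcium channels, reached 1368 CPM in BC against 44.5 in MG, 38.3 in Cone, 30.8 in Rod, 3.13 in AC and 0 in RGC, a 58.6-fold difference (interval 54.5 to 62.9). BC did not overlap any other column for either gene. Gsg1 (47.6-fold, 33089 BC counts), Cntn5, an adhesion molecule of the contactin family (47.3-fold), and Cnmd (43.8-fold) were of similar fold. Vipr2, a receptor for vasoactive intestinal peptide, closed the 20 leading genes at 35.9-fold (interval 25.6 to 49.3). Of its 1223 BC counts, 97.2% were an isoform of 5 exons and 555 nt that is not an Ensembl transcript. Its coding transcript of 13 exons had 34. All Cntn5 counts were an isoform of 2 exons and 423 nt, and all Cacna2d3 counts a transcript of 8 exons and 1222 nt. Levels of full-length transcripts of these 3 genes were not tested. Among genes with 100 or more but under 1000 BC counts, folds were higher but less certain. The 5 highest were those of Trpm1, Mypn (234, interval 16.2 to 859), Actc1 (152, interval 31.9 to 657), Hamp2 (145, interval 35.0 to 418) and Slc17a1 (143, interval 20.2 to 334). Setting columns at 0 to 3 counts lowered the fold of Mypn to 11.8, that of Slc17a1 to 14.1, that of Hamp2 to 31.4 and that of Actc1 to 31.9.

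The residual level of the 20 genes in the other columns varied from gene to gene. Relative to BC, the median level over the 20 was 3.18% in MG, 3.13% in Rod, 2.61% in Cone, 0.239% in AC and 0% in RGC. The ranges overlapped, at 0% to 7.16% in MG, 1.15% to 6.16% in Rod, 1.30% to 6.35% in Cone, 0% to 5.43% in AC and 0% to 5.29% in RGC. Whether these low levels belong to the cells of those classes was not tested. The 428 genes as a whole differed in which column came next, which was MG for 119, AC for 110, Cone for 97, Rod for 68 and RGC for 34.

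**Figure D2:**
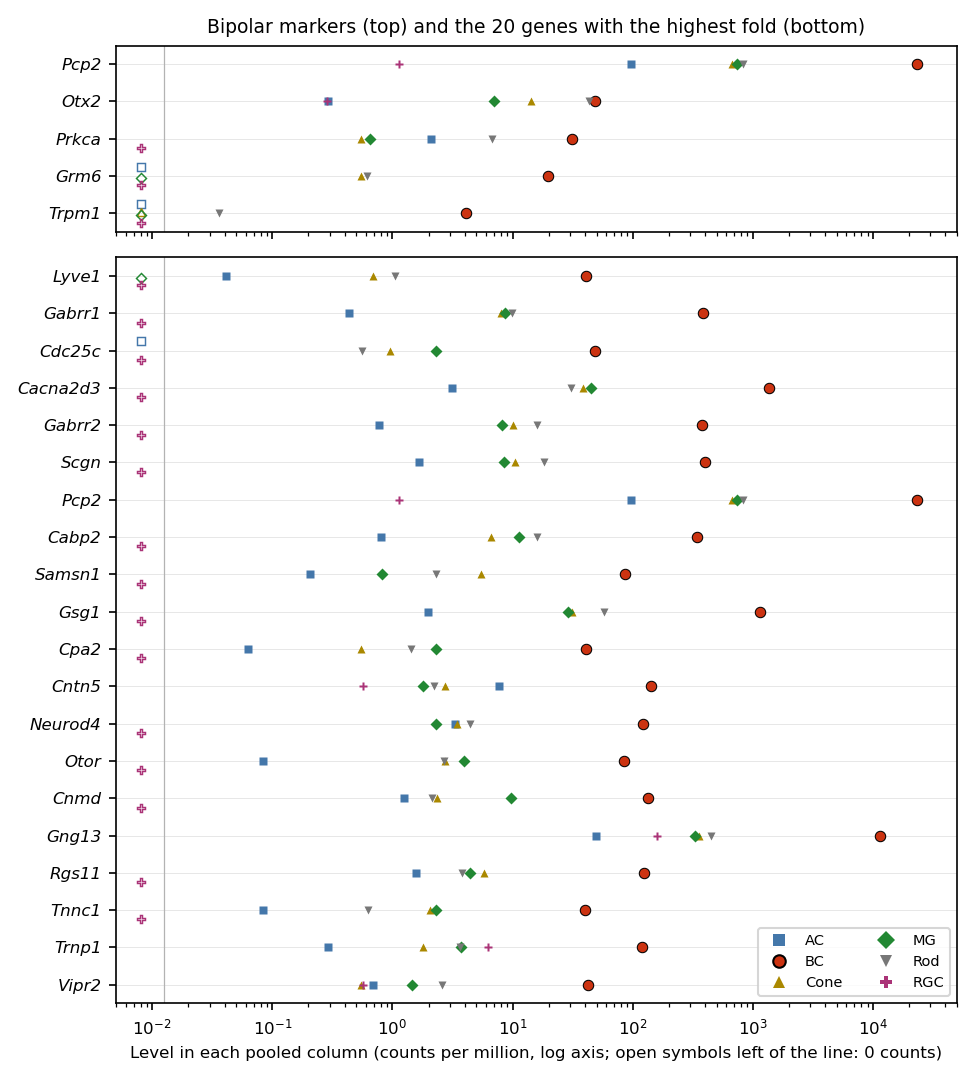
Level in each of the 6 pooled columns (CPM, log axis) of the 5 bipolar markers and of the 20 genes with the highest fold among those with 1000 or more BC counts, with open symbols left of the line for 0 counts. BC lies to the right of every other column for each gene, with Rod close to BC for Otx2.

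In the ON cascade, mGluR6 signals through Gαo and its βγ partners to TRPM1 and is reset by RGS proteins. Several of its genes were high in BC. Of 14 listed genes, 13 were in the table and 11 had 100 or more BC counts. Of these 11, 7 were 4-fold or more higher and 1 was lower, with a median fold of 39.8, against 6.93% and 4.77% of all genes. With the count required in any column, 7 of 12 were higher and 2 lower, against 4.65% and 15.4% of all genes so counted. Rgs9bp was not analysed here. Grm6, Trpm1 and Pcp2 of this list are also among the bipolar markers above. This list and those below were chosen with earlier results of these data known, so their counts are descriptions only.

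The receptor end of the cascade had few counts outside BC. Grm6, which encodes mGluR6, lies at chr11:50850685-50866208, plus strand. It was at 19.6 CPM in BC (569 counts), 0.613 in Rod and 0.547 in Cone, with 0 counts in AC, MG and RGC. The fold was 84.5 (interval 38.4 to 162), or 38.2 with the columns at 0 set to 3 counts. Nyx, the leucine-rich repeat protein that holds TRPM1 at the synapse, was at 9.51 CPM in BC, 0.613 in Rod, 0.326 in MG and 0 in AC, Cone and RGC, a 50.6-fold difference (interval 20.3 to 105), or 20.985-fold with columns at 0 set to 3 counts. Trpm1 itself (chr7:64153835-64269775, plus strand) had 118 BC counts, 2 Rod counts and 0 elsewhere. Its 4.07 CPM in BC gave a ratio of 564 with an interval from 15.7 to 5575, and 11.0 with columns at 0 set to 3 counts. Gpr179, an orphan receptor that recruits RGS proteins to the complex, had 10 BC counts and 1 Rod count, so no difference could be read at this depth.

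The G-protein subunits differed from each other. Gng13, the γ13 subunit, stood at 11346 CPM in BC, 451 in Rod, 357 in Cone, 330 in MG, 159 in RGC and 49.3 in AC, a 42.1-fold difference (interval 41.2 to 43.1). Its β partner Gnb3 was at 2717 CPM in BC but at 4654 in Cone, with 119 in Rod, 78.8 in MG, 18.9 in AC and 5.41 in RGC, so BC was 2.79-fold above the mean and below Cone. Gnao1, which encodes Gαo, was at 10.3 CPM in BC, 7.69 in RGC, 2.74 in AC, 0.704 in Rod, 0.547 in Cone and 0 in MG. Its fold of 4.40 had an interval from 3.01 to 6.48, which reaches below 4-fold, and its log2 fold fell below the 4-fold call at 1.88 without Cone, 1.82 without MG and 1.90 without Rod. Gαo is widely expressed in neurons, whereas γ13 is known from ON bipolar and taste cells.

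The regulators were also split. Rgs11, a GTPase activator that speeds the cascade's response, was at 123 CPM in BC, 5.75 in Cone, 4.40 in MG, 3.77 in Rod, 1.58 in AC and 0 in RGC (39.8-fold, interval 32.4 to 48.6). Rgs7, its partner in ON bipolar cells, reached 12.4 CPM in BC, 14.2 in RGC, 9.31 in Cone and 7.73 in AC and so did not set BC apart (1.86-fold). Gnb5, the Gβ5 subunit that binds both, was at 12.9 CPM in BC but 428 in Rod and 271 in Cone, 11.2 times lower in BC than the mean of the others. Lrit3, a photoreceptor protein needed to place TRPM1, had 6 BC counts against 223 in Rod.

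Kainate and AMPA receptors, the glutamate receptors of OFF bipolar cells, were thinly covered. Of 11 listed genes, 9 were in the table (Grik3 and Neto1 were not analysed here) and 3 had 100 or more BC counts, of which 2 were higher and 0 lower, against 6.93% and 4.77% of all genes. With the count required in any column, 2 of 5 were higher and 1 lower, against 4.65% and 15.4% of all genes so counted. Grik1, the kainate subunit GluK1, was at 13.8 CPM in BC, 0.722 in Rod, 0.477 in AC, 0.326 in MG, 0.274 in Cone and 0 in RGC, a 38.3-fold difference (interval 20.6 to 63.4). Gria1, the AMPA subunit GluA1, was at 9.17 CPM in BC, 1.89 in AC, 0.855 in RGC, 0.326 in MG, 0.274 in Cone and 0.180 in Rod (interval of the fold 7.73 to 21.3). Gria4, the GluA4 subunit, was instead highest in AC at 26.4 CPM, with 3.48 in BC. The other 6 genes had between 0 and 26 BC counts.

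Transcription factors of bipolar cells included several restricted to the BC column. Of 19 listed genes, 18 were in the table, 15 had 100 or more BC counts, and of these 9 were higher and 0 lower, with a median fold of 6.79, against 6.93% and 4.77% of all genes. Lhx3, a LIM homeodomain factor, was at 17.9 CPM in BC and at most 0.541 elsewhere (Rod), an 87.9-fold difference (interval 37.6 to 176), or 47.8-fold with columns at 0 set to 3 counts. Isl1, a LIM factor of ON bipolar cells, was at 10.5 CPM against at most 0.652 in MG (51.9-fold, interval 20.1 to 135, or 28.2-fold with that setting). Neurod4, a proneural bHLH factor, was at 122 CPM in BC and 4.44 in Rod, 3.42 in Cone, 3.30 in AC, 2.28 in MG and 0 in RGC (45.2-fold).

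Vsx1 and Bhlhe23, like Lhx3 and Neurod4, had Rod as their next column. Vsx1, a factor of OFF cone bipolar cells, was at 19.3 CPM in BC and next highest in Rod at 2.13 (39.8-fold, or 25.6-fold with columns at 0 set to 3 counts). Bhlhe23, a bHLH factor of rod bipolar cells, was at 6.65 CPM in BC and 0.956 in Rod (32.7-fold, or 11.997-fold with that setting). Crx, the photoreceptor homeobox gene, was at 24.5 CPM in BC, below 182 in Rod and 98.9 in Cone, and Six6 and Six3, factors of several retinal classes, were at 0.561 and 0.490 of the mean of the others.

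Most of the covered markers of bipolar subtypes were high in BC. Of 28 listed genes, 24 were in the table, 15 had 100 or more BC counts, and 12 of these were 4-fold or more higher and 0 lower (median fold 15.7), against 6.93% and 4.77% of all genes. The call of Pcdh17, a protocadherin at 4.13-fold, was lost when Cone, MG, Rod or RGC was left out (log2 fold 1.79 to 1.93). With the count required in any column, 12 of 20 were higher and 0 lower, against 4.65% and 15.4% of all genes so counted. Sebox, a homeobox gene of rod and some cone bipolar cells, was at 1371 CPM in BC, 87.7 in Cone, 66.4 in Rod, 40.9 in MG, 7.48 in AC and 0 in RGC (33.8-fold, interval 32.1 to 35.7). Htr3a, a serotonin receptor channel, was at 39.1 CPM in BC and 4.24 in MG (35.4-fold), and Igfn1, an immunoglobulin and fibronectin domain gene, at 11.2 CPM in BC and 0.489 in MG (85.3-fold, interval 26.6 to 285, or 29.1-fold with columns at 0 set to 3 counts). Cck, a neuropeptide shared with amacrine cells, was at 1528 CPM in BC and 503 in AC, with 41.1 to 47.4 CPM in the other 4 columns (11.3-fold). Spock3 was at 9.58 CPM in BC but 111 in AC. Tacr3, Syt2, Lrrtm1 and Hcn4 were not analysed here.

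Inhibitory receptors differed widely within 1 family. Of 14 genes for GABA and glycine receptors, all in the table, 8 had 100 or more BC counts, of which 6 were higher and 0 lower, against 6.93% and 4.77% of all genes. With the count required in any column, 6 of 13 were higher and 5 were lower, against 4.65% and 15.4% of all genes so counted. The ρ subunits of the GABA-C type receptor, known from bipolar terminals, led the group. Gabrr1 was at 382 CPM in BC, 9.83 in Rod, 8.64 in MG, 7.94 in Cone, 0.435 in AC and 0 in RGC (71.2-fold, interval 61.6 to 82.1). Its neighbour Gabrr2 was at 380 CPM in BC, 15.8 in Rod, 9.99 in Cone, 8.15 in MG, 0.767 in AC and 0 in RGC (54.7-fold, interval 48.4 to 61.6). Both genes lie on chromosome 4 (Gabrr1 at chr4:33132521-33163588, Gabrr2 at chr4:33062999-33095865, both on the plus strand). Gabrr3 was at 28.2 CPM in BC and 9.58 in Cone (11.8-fold).

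Several other inhibitory receptor subunits had few BC counts. Gabra2 had 1 BC count and 1160 in AC, Gabra3 had 1 and 430, Glra2 had 8 and 1645, and Glra3 had 0 and 1062. Glra1, the α1 glycine receptor subunit, had 14 BC counts, 1 Rod count and 0 elsewhere.

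Calcium-binding proteins differed in direction. Of 16 genes for protein kinase C isoforms and calcium-binding proteins, 11 had 100 or more BC counts, of which 5 were higher and 2 lower (median fold 2.29), against 6.93% and 4.77% of all genes. With the count required in any column, 5 of 13 were higher and 3 lower, against 4.65% and 15.4% of all genes so counted. The median fold was then 1.46. Scgn, which encodes secretagogin, was at 401 CPM in BC and next highest in Rod at 18.3 (51.6-fold, interval 46.0 to 57.6). Cabp2 and Cabp5, calmodulin-like regulators of calcium channels, were at 341 CPM (49.4-fold) and 533 CPM (29.8-fold) in BC, and next highest in Rod at 15.9 and in Cone at 43.2 CPM. Car8, a carbonic anhydrase-related protein that binds the IP3 receptor, was at 418 CPM in BC and 42.5 in AC (20.0-fold). Calb2, which encodes calretinin, had the lowest fold of the genes with 100 or more BC counts, with 27.6 CPM in BC against 23012 in RGC and 802 in AC, 174 times below the mean of the others. Prkcb, another conventional protein kinase C, had 22 BC counts.

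The ribbon synapse and release machinery set BC apart less. All 20 listed genes were in the table, 13 had 100 or more BC counts, and 2 of these were higher and 1 lower, with a median fold of 1.16, against 6.93% and 4.77% of all genes. With the count required in any column, 2 of 17 were higher and 1 lower, against 4.65% and 15.4% of all genes so counted. The median fold was then 0.976. Cacna2d4, a calcium channel subunit of ribbon synapses, was at 37.3 CPM in BC, 13.3 in Rod and 8.29 in AC (5.36-fold). Pclo, a scaffold of the active zone, was at 7.79 CPM in BC and 6.16 in Cone (4.89-fold, interval 3.31 to 7.12, log2 fold 1.97 without MG or RGC). Of the 226 BC counts of Pclo, 92.9% were an isoform of 2 exons and 487 nt. Cabp4, a photoreceptor calcium channel regulator, was the lower gene, at 19.8 CPM in BC against 716 in Rod and 489 in Cone. Syp, the vesicle protein synaptophysin, was at 421 CPM in BC and 397 in Cone, whereas Snap25, a membrane SNARE, was at 595 CPM in BC, 3114 in AC and 6614 in RGC.

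The list of ion channels was poorly covered. Of its 14 genes, 8 were in the table and 2 had 100 or more BC counts. Kcnma1, the BK potassium channel, was at 67.1 CPM in BC, 6.98 in Cone, 1.44 in Rod, 1.30 in MG, 0.104 in AC and 0 in RGC (34.1-fold, interval 25.8 to 45.0). Kcnj14, an inward rectifier, was at 6.72 CPM in BC and 261 in Rod, 8.33 times below the mean of the others. Its level in BC was above that in AC, MG and RGC, and without Rod its log2 fold was 0.51.

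**Figure D3:**
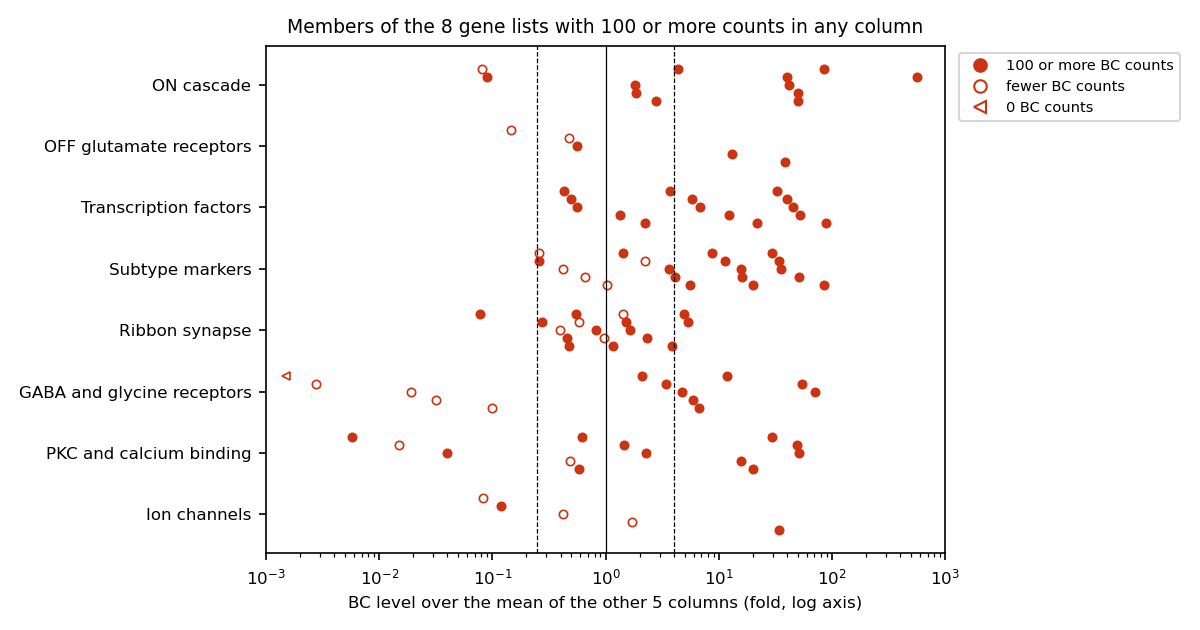
Fold of BC over the mean of the other 5 columns (log axis) for members of the 8 gene lists with 100 or more counts in any column; filled points have 100 or more BC counts, open points fewer, and dashed lines mark 4-fold. The ON cascade spans Lrit3 at 0.0818 to Trpm1 at 564. The GABA and glycine receptors include 5 genes 4-fold or more lower, all with fewer than 100 BC counts. Of all genes with 100 or more counts in any column, 15.4% were 4-fold or more lower.

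The 10 genes with the lowest folds were each highest in another column. After Calb2 came Sncg, γ-synuclein of ganglion cells, at 19.9 CPM in BC and 15741 in RGC, 163 times below the mean. Resp18, Gap43 and Tppp3 were highest in RGC, Cxcl14 in AC (2223 CPM against 8.10 in BC), and Opn1sw and Opn1mw, the cone opsins, in Cone. Ttr and Cd74 were highest in MG. For 6 of the 10 the call rested on 1 column. Without it the log2 folds were -1.39 for Cxcl14 (AC), 0.32 for Opn1mw and -0.38 for Opn1sw (Cone), -1.92 for Cd74 and -0.51 for Ttr (MG) and -1.56 for Tppp3 (RGC). Each of these 10 genes except Sncg was higher in BC than in at least 1 other column. By level, the most abundant BC genes after Pcp2 were Ubb, Mgarp, Ckb and Gng13, and the 10 genes with the most counts held 11.6% of the column. Ckb, brain creatine kinase, was at 12767 CPM in BC and 10342 in Cone, and Mgarp, a mitochondrial protein, at 14155 CPM in BC and 10681 in MG. Pcp4, a calmodulin-binding peptide, was at 10253 CPM in BC and 12143 in RGC. Gngt1, the rod transducin γ subunit, was also among the 10, at 6378 CPM in BC, 44574 in Rod and 21831 in Cone.

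The second question was which isoforms bipolar cells use. For 4092 genes with 2 or more isoforms and 100 or more counts in BC and in at least 1 other column, shares of the gene's counts could be compared. The leading BC isoform took a median of 81.1% of a gene's BC counts (lower quartile 62.3%). In 465 genes the leading isoform differed from that of the other columns, and in 211 genes (5.16%) its BC share was also 25 or more percentage points above its mean share elsewhere. The latter are called isoform differences here. Of these 211, 69 rested on a single other column. Among the 158 comparable genes that were 4-fold or more higher in BC, 26 (16.5%) had such a difference, and among the other 3934 genes 185 did (4.70%). The higher genes have few counts in the other columns, and the part of that in the contrast was not tested.

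Of the 211 genes, 200 had models of both isoforms. In these, 75 differed in the first exon, 68 in an internal exon and 65 in the last exon. A splice site or intron differed in 14, and 3 differed only in their ends. A gene can count in more than 1 of these. First or last exons were counted as different wherever they did not overlap. An isoform that starts or ends inside the other therefore counts as well, as for Slit2, Rec8 and Pitpnm1. Use of alternative first or last exons was not separated from such shortened isoforms. In 14 genes the isoforms shared no span. The leading BC isoform was not an Ensembl transcript in 110 of the 211 (52.1%), compared with 768 of all 4092 genes (18.8%).

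Single coding exons were examined for 7 genes. For each exon, the share given is of counts whose isoform holds the exon, among counts whose isoform holds it or splices over it. Isoforms without an exon model were left out. Exons and their sequences were taken from GENCODE M21 transcripts on build GRCm38, printed in the direction of transcription in lower case. Slc17a7, Rgs7, Tpm2 and Tpd52l1 met the rule for an isoform difference, whereas Gria1, Snap25 and Nnat are listed genes whose exons were chosen after their values were seen. In pairs of exons that replace each other, capitals mark the bases that differ between them.

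Slc17a7 encodes the vesicular glutamate transporter VGLUT1, which loads synaptic vesicles of photoreceptors and bipolar cells. BC mostly skipped a 75-nt coding exon that the photoreceptor columns kept. The exon, at chr7:45169511-45169585, is a multiple of 3, so the coding sequence of 1755 nt becomes 1680 nt without it. It was held by 12.4% of 331 BC counts (interval 9.04% to 16.4%), 79.4% of 495 Rod counts (75.6% to 82.9%) and 68.8% of 93 Cone counts (58.4% to 78.0%). BC did not overlap either photoreceptor column, while AC, MG and RGC had too few counts to describe. A single-exon isoform runs unspliced across the position of this exon, with 37 BC, 185 Rod and 8 Cone counts. Those counts were left out of the shares.
Slc17a7 75-nt exon: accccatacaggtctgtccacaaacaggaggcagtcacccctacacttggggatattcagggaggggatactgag

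Gria1 uses either of 2 exons known as flip and flop, which set the kinetics of AMPA receptors. BC counts held the exon at chr11:57309769-57309883, the flop form, in 93.4% of 257 counts (interval 89.6% to 96.1%), and AC in 70.3% of 74 (58.5% to 80.3%). The flip exon, at chr11:57310608-57310722, took the remaining 6.61% in BC and 29.7% in AC. The exons have 115 nt each and are identical at 79 positions.
Gria1 flop exon: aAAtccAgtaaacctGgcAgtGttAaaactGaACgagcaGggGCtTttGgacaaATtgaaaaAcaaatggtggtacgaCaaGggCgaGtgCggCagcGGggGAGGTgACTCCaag
Gria1 flip exon: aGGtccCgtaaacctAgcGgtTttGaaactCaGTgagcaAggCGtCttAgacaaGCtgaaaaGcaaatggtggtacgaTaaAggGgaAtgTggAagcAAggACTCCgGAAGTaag

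Snap25 likewise has alternative exons, which give SNAP25a of developing neurons and SNAP25b of mature ones. The b exon, at chr2:136770057-136770174, was held by 86.5% of 17267 BC counts (interval 86.0% to 87.0%). BC lay between AC at 70.8% and RGC at 92.9%, with 96.8% in Rod, 97.4% in Cone and 92.3% in MG. The a exon, at chr2:136769743-136769860, made up 13.5% in BC. The leading isoform was the same in BC as in the other columns, and 87 of the 118 positions are identical.
Snap25 b exon: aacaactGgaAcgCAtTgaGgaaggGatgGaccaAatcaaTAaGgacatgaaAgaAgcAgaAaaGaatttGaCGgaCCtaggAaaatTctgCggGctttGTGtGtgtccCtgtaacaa
Snap25 a exon: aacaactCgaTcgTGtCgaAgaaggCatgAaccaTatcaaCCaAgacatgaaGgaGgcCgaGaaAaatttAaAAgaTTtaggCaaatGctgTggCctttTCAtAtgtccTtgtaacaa

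Rgs7, of the ON cascade, held a 54-nt coding exon in BC that was in none of the AC counts compared. The exon, at chr1:175076824-175076877, was in 46.8% of 357 BC counts (interval 41.5% to 52.1%), 43.3% of 67 Cone counts (31.2% to 56.0%), 25.3% of 87 Rod counts (16.6% to 35.7%), 0 of 331 AC counts (up to 1.11%) and 0 of 32 RGC counts (up to 10.9%). BC overlapped Cone but not Rod or AC. The gene had 373 AC counts and 50 RGC counts in all, and those not compared could not be placed for this exon.
Rgs7 54-nt exon: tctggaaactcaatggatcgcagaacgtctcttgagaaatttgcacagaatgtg

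Nnat, a small membrane proteolipid listed as a subtype marker, was split between forms with and without an 81-nt coding exon at chr2:157561213-157561293. The exon was in 44.1% of 9050 BC counts (interval 43.1% to 45.1%), between 59.5% in MG and 49.8% in Rod above it and 26.9% in Cone, 12.8% in AC and 7.23% in RGC below it. BC was therefore intermediate.
Nnat 81-nt exon: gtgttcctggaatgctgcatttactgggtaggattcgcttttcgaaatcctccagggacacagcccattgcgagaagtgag

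Tpm2, the β-tropomyosin gene, uses 1 of 2 mutually exclusive 76-nt coding exons, and BC differed here from Müller glia. The exon at chr4:43518644-43518719 was in 84.2% of 544 BC counts (interval 80.8% to 87.2%), all of 310 AC counts, 80.3% of 61 Cone counts, 76.2% of 63 Rod counts and 10.4% of 540 MG counts (7.93% to 13.3%). Its alternative, at chr4:43519003-43519078, took 15.8% in BC and 89.6% in MG. Only 41 of their 76 positions (53.9%) are identical.
Tpm2 exon leading in BC: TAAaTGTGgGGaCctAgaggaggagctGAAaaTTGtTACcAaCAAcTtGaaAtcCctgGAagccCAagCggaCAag
Tpm2 exon leading in MG: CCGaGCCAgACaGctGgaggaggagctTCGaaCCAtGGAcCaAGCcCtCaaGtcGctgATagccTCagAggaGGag

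Tpd52l1, a gene of vesicle trafficking, holds a coding microexon of 15 nt at chr10:31343012-31343026. The microexon was in 15.1% of 159 BC counts (interval 9.92% to 21.6%), 99.6% of 523 AC counts, 57.1% of 28 Rod counts and 3.39% of 59 MG counts. BC was far below AC and overlapped MG.
Tpd52l1 15-nt exon: gtctcactcttttgg

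**Figure D4:**
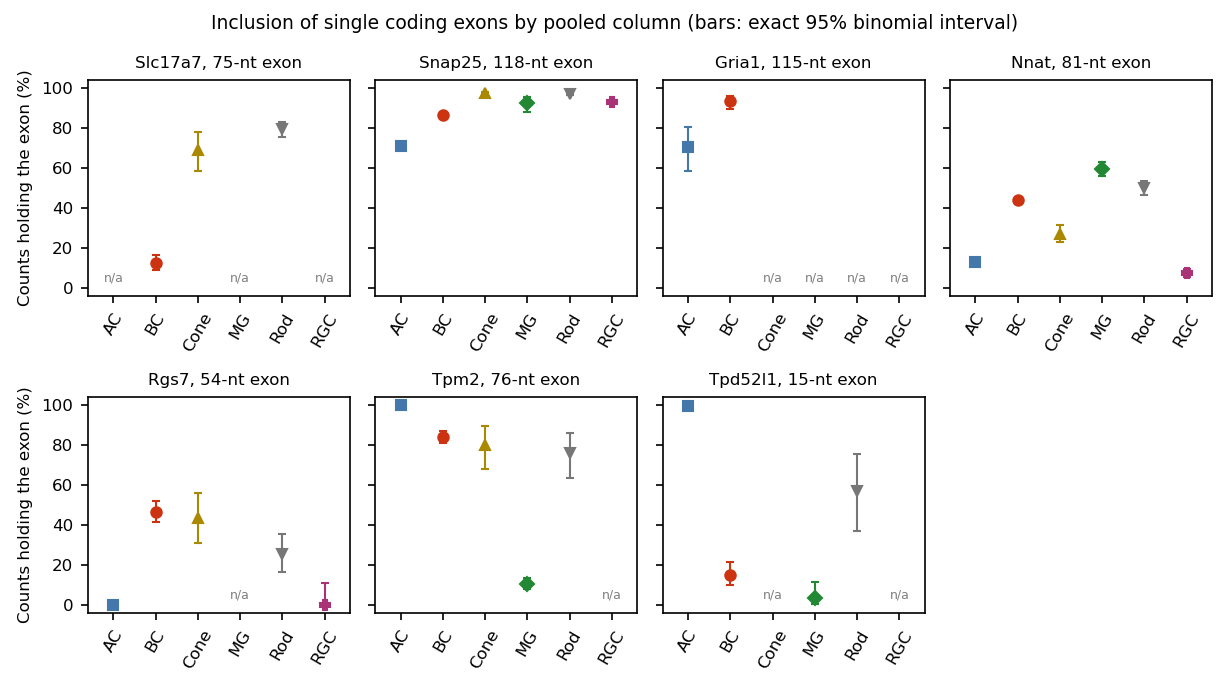
Share of counts that hold each coding exon (vertical axis, percent) in the 6 pooled columns for 7 genes, with exact 95% binomial intervals; n/a marks fewer than 20 counts, and for Gria1, Snap25 and Tpm2 the exon that leads in BC is shown. BC holds the Slc17a7 exon in 12.4% of counts against 68.8% in Cone and 79.4% in Rod, and the Gria1 exon in 93.4% against 70.3% in AC.

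Other differences changed the start or the extent of the transcript. Zfp119b, a zinc finger gene, had 1282 BC counts, of which 87.4% (interval 85.5% to 89.2%) were the form with 1 first exon that made up 3.95% in AC and 10.6% in Rod. Rxrg, a retinoid X receptor of cones, had 1166 BC counts, and 74.3% of them (71.7% to 76.8%) were a transcript of 11 exons. The same transcript made up 68.8% of 93 MG counts but 9.34% in Cone, 12.4% in Rod, 0.137% in AC and 0% in RGC. The transcript with the highest mean share elsewhere has 10 exons, and both have a coding sequence of 1389 nt. Lhx4, a LIM factor of bipolar cells, began with an alternative first exon in 63.1% of BC counts (60.9% to 65.2%), 62.3% of 159 Rod counts and 4.19% of 167 Cone counts. Prkca was mostly the full form with 17 exons and a coding sequence of 2016 nt in BC (68.0%, interval 64.8% to 71.0%) and in Rod (61.9%), and mostly a form with 7 exons and 744 nt in AC (85.1% of 101 counts).

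The 12 genes with the largest differences were Loxl1, Ptprd, Asphd1, Zfp119b, Rec8, Csnk2b, Slit2, Tpd52l1, Pitpnm1, Tpm2, Rxrg and Zbtb14. For 7 of these the rule compared BC with 1 other column. Loxl1, a lysyl oxidase, led with 97.7% of 131 BC counts lacking a coding exon of 138 nt that all 124 AC counts held. The exon was also lacking in 16 of 38 MG counts, 6 of 11 Rod counts and all 10 Cone counts, too few to enter the rule. Rec8, a meiotic cohesin subunit, held a 73-nt coding exon in 11 of 92 BC counts and in all of 422 AC counts whose isoform has an exon model. Isoforms without a model, with 89, 27 and 17 of the gene's 555 AC counts, were left out. For Asphd1 the 2 isoforms differed only in their ends. Ptprd, a receptor phosphatase of synapses, had isoforms with no shared span, a 5-exon model in BC (92.1% of 692 counts) and a retained-intron transcript in AC and RGC.

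**Figure D5:**
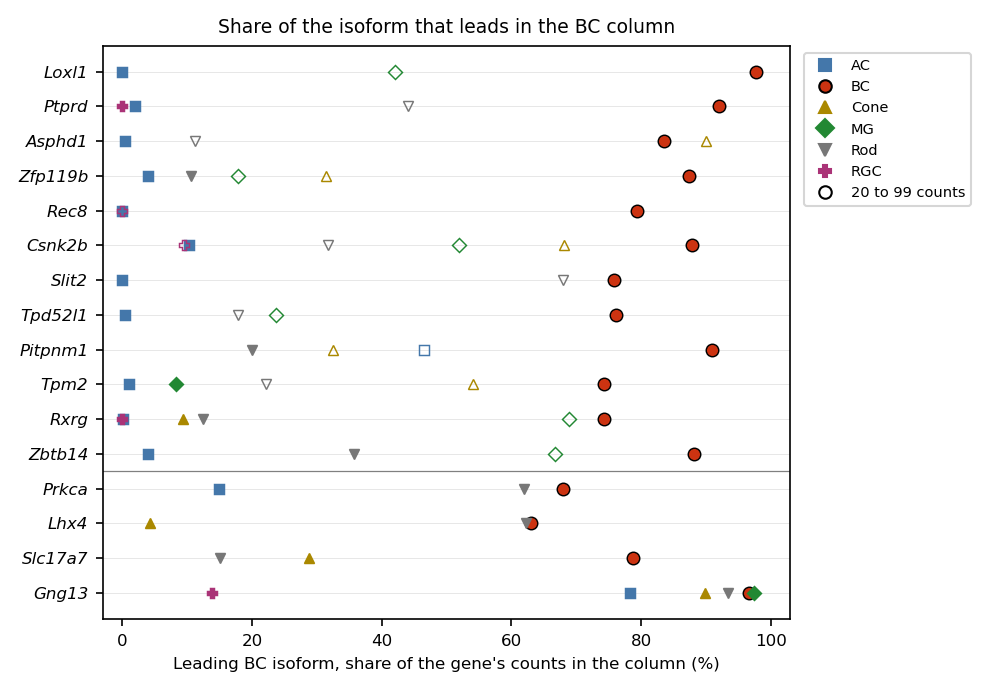
Share of a gene's counts taken by the isoform that leads in BC (horizontal axis, percent), by pooled column, for the 12 genes with the largest differences and for Prkca, Lhx4, Slc17a7 and Gng13; open symbols rest on 20 to 99 counts and columns with fewer are not drawn. BC lies at 74.3% or above for the 12 genes, and RGC stands apart for Gng13 at 13.8%.

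Some genes that were high in BC had the same leading isoform in Rod. Pcp2 was 87.4% a 4-exon transcript in BC and 86.0% in Rod, and Gabrr2 was 99.98% of a single transcript. Gng13 was 96.7% of the form with 1 first exon in BC, 93.3% in Rod and 78.3% in AC, but 13.8% in RGC, where an alternative first exon led with 86.2% of 558 counts. Grm6 counts were 84.5% a transcript of 2 exons with no coding sequence in M21, so most of its 569 counts do not cover the receptor's whole coding region. The most abundant unannotated isoforms of BC-high genes belonged to Gsg1 (12050 BC counts, 36.4% of the gene), Tnnt1 (7569 and 7350 counts, 43.5% and 42.2%), Slc4a10 (4906 counts, 97.4%) and Aplp2 (4462 counts, 96.7%). Gsg1 had the same form in 35.7% of Rod counts and Slc4a10 in 90.7% of AC counts.

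Promoter sequences were searched on both strands for TAATCC, the core of sites bound by OTX2 and CRX, and for TAATTA and CATATG, cores of homeodomain and bHLH sites. RefSeq promoters on build GRCm38.p6 were matched to 273 of the 377 named genes 4-fold or more higher in BC, giving 389 windows of 250 bases before the start. TAATCC was in 33 of them (8.48%), against 6.25% of all 32851 promoters and 5.57% of those of genes with 100 or more BC counts. TAATTA was in 2.06% against 4.84% and 2.43%, and CATATG in 3.34% against 3.46% and 1.52%. These shares are descriptions of short motifs. Of 10 promoters of named BC genes examined one by one, that of Cabp5 alone held any of the motifs, with TAATCC 160 and 41 bases before the start. The window is shown, with both matches in capitals, because it alone of the 10 held a motif. Cabp5 was 29.8-fold higher in BC, but Lhx3, Grm6 and Gabrr1, with higher folds, held none of the motifs in theirs.
Cabp5 promoter, chr7:13397905-13398154, plus strand: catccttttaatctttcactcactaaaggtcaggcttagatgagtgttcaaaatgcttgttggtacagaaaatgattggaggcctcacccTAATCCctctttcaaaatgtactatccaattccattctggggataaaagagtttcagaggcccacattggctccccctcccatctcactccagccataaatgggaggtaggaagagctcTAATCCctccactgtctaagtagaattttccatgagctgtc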

How the data were processed

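The authors deposited whole-number counts per isoform for 6 cell classes, pooled over 4 libraries. Per the labels' protocols these are nanopore reads of 10x single-cell cDNA, and build mm10 is named in the submitters' processing notes. Whether a count is a read or a molecule, how cells were typed and how isoforms were filtered are not given in the sources used here. Counts of isoforms were summed per gene and scaled to CPM. A gene was called at 4-fold or more from the mean of the other 5 columns. BC intervals are exact Poisson, those of folds combine the outer bounds of both levels, and shares have exact Clopper-Pearson intervals.

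Named genes were the 5 markers, the 20 and 5 with the highest folds (from 1000 BC counts up, and from 100 to under 1000), the 10 with the highest level and the 10 with the lowest fold, members of 8 lists, 12 isoform differences and the 5 most abundant unannotated isoforms. Members and lists were chosen with earlier results of these data known. Exon structure came from deposited models, which cover isoforms with a Rod count, and GENCODE M21. Tools were Python 3.11.15, numpy 2.4.6, pandas 2.3.3, scipy 1.17.1 and, for scaling factors alone, R 4.3.3 with edgeR 4.0.16 and DESeq2 1.42.0. Scripts were tested on simulated data. Some members of the lists are not reported here by name.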

Additional observations from a re-analysis of the deposited data

How the results depend on the processing

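No paired analysis was possible because each class is 1 pooled column without replicates. The 428 genes 4-fold or more higher numbered 181 with a minimum of 500 BC counts, 771 against the median of the other columns and 174 against the highest, and between 303 and 591 under the other settings tried. The 295 lower genes numbered 467 and 106 with minimums of 50 and 500 BC counts, 1428 with 100 counts in any column, 188 with median-of-ratios factors, 57 against the median and 0 against the lowest of the other columns, and 224 to 341 otherwise. The 211 isoform differences numbered 59 at 50 percentage points, 60 with minimums of 500 counts and 71 with Ensembl transcripts alone, and 207 to 260 otherwise. Of 72 named genes called, 72 stayed past 4-fold with TMM factors, 71 with median-of-ratios factors, 64 with a pseudocount of 1 CPM, 62 against the median, 50 against the highest or lowest other column and 67 to 70 when 1 other column was left out. Pcdh17 lost the call under 7 settings and Gnao1 under 5. Some log2 folds changed sign. Against the median these were Kcnj14 (0.41), Opn1mw (0.34) and Opn1sw (0.23). Without Cone it was Opn1mw (0.32), and without Rod Kcnj14 (0.51). Against the lowest column, which by construction favours BC, they were Opn1mw (10.91), Opn1sw (10.62), Cabp4 (8.51), Ttr (8.50), Gnb5 (7.90), Kcnj14 (6.96), Cd74 (6.79), Cxcl14 (0.98), Gap43 (0.93), Resp18 (0.58), Tppp3 (0.53) and Calb2 (0.036). Setting columns at 0 to 3 counts was chosen after seeing the data. RGC is the shallowest column, so that its floor of 3 counts is 0.855 CPM, and genes below that level there cannot be told from 0.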

Other observations

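Groups of genes outside the lists were picked after their values were seen, so their counts carry no support. Some genes known from muscle were high in BC. Of 12 muscle genes looked at, 7 had 100 or more BC counts. Of these 7, 5 were 4-fold or more higher, against 6.93% of all 6180 genes. Tnnt1, slow skeletal troponin T, was at 600.3 CPM in BC, 32.5-fold above the mean of the other columns (interval 29.9 to 35.3). Tnnc1, cardiac troponin C, was 39.3-fold higher (interval 26.2 to 58.8) and Acta1, skeletal α-actin, 14.7-fold higher (interval 10.9 to 19.0). Actc1 and Mypn had 296 and 126 BC counts, and their folds were 31.9 and 11.8 with columns at 0 set to 3 counts. Myl4 (1.52-fold) and Ryr2 (1.07-fold) did not stand apart, and Acta2, smooth muscle actin, was lower in BC (fold 0.0420), as were Des (0.176) and Casq2 (0.194), with 25, 20 and 11 BC counts.

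Some potassium channel genes beyond Kcnma1 were high in BC, while listed ones such as Kcnj14 (0.120), Kcnab1 (0.419) and Kcnc1 (0.135) were not. Kcnmb2, an auxiliary subunit of the BK channel, was 53.0-fold higher on 346 BC counts (interval 22.7 to 112), or 30.1-fold with columns at 0 set to 3 counts. Kcna5, a delayed rectifier, was at 110 CPM in BC and 44.6 in AC (9.51-fold), and Kcnv2, a modifier subunit known from photoreceptors, was at 93.0 CPM in BC (4.97-fold). Among adhesion genes, Cntn5 was 47.3-fold higher, Slitrk3 50.7-fold (interval 24.4 to 93.8) and Cdh9 69.0-fold on 143 BC counts (interval 15.5 to 137). With columns at 0 set to 3 counts Slitrk3 was at 31.5-fold and Cdh9 at 11.7-fold.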
